A study of Mus musculus with 6 samples.

Results

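The genes described here encode the heat shock proteins and chaperones of mouse cochlear organoids kept in stiff or in soft hydrogels. The rule matched gene symbols: the HSP70, HSP110, HSP90, HSP60, HSP10 and small heat shock protein genes, the J-domain genes of the Dnaja, Dnajb and Dnajc series, the subunits of the cytosolic chaperonin, the Bag genes, Stip1, Hspbp1, the heat shock factor genes Hsf1 and Hsf2, the protein disulfide isomerases, and calreticulin and calnexin. Of 15016 genes in the deposited table, 93 matched. By the place where the protein is known to work, 57 were grouped as cytosolic, 8 as mitochondrial and 21 as belonging to the endoplasmic reticulum (ER). The remaining 7, all J-domain genes, were grouped as other. Genes of nuclear proteins fell partly in the cytosolic class and partly in the class other.

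The organoids were 3-dimensional cultures grown from cochlear progenitor cells of wild-type mouse inner ear, and RNA-seq was made from 3 libraries of organoids in stiff gels and 3 libraries of organoids in soft gels. Both groups were first expanded with EGF, bFGF, IGF, CHIR99021, valproic acid, 2-phospho-L-ascorbic acid and 616452, and both then received a differentiation medium with CHIR99021, which inhibits GSK3 and so raises Wnt signalling, and LY411575, which inhibits gamma-secretase and so blocks Notch signalling. The gels differed at the differentiation stage, so the comparison asks how the stiffness around the cells goes with RNA levels during differentiation. The sources used here do not give the stiffness of the gels, the time in them or whether the libraries came from separate cultures, so p-values measure only how these libraries vary, which may be technical variation.

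Chaperones hold unfolded proteins, fold them and hand them on to other chaperones or to breakdown. HSP70 proteins work in cycles that J-domain proteins start and exchange factors such as the Bag proteins end, HSP90 matures kinases and receptors, and the small heat shock proteins hold unfolding proteins without using ATP. The heat shock factor HSF1 raises many of the cytosolic genes when proteins unfold, the unfolded protein response raises those of the ER, and in the inner ear heat shock proteins are known for protecting hair cells from noise, heat and ototoxic drugs.

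Depth was 16108470 to 17825127 reads in the stiff libraries and 17328469 to 17899391 reads in the soft libraries, rebuilt from the deposited values. On the first principal component of all tested genes, which held 62.5% of the variance, the stiff libraries lay between -17.3 and -7.9, soft replicates 2 and 3 lay at 16.1 and 18.9, and soft replicate 1 stood apart at 1.9. The summed level of 10 markers of cochlear epithelium and supporting cells was 580 to 644 FPKM (fragments scaled by gene length and by depth) in stiff libraries and 391.6 to 501 FPKM in soft libraries. All 9 that could be tested had higher means in stiff gels. Of these, 5 were called higher at a limma adjusted p of 0.05, against 3.13% of all tested genes. Mesenchymal markers summed to 560 to 616 FPKM in stiff libraries and 369 to 560 FPKM in soft libraries, with 0 of 3 tested called. Lum and Dcn held nearly all of that sum, with means of 411 and 181 FPKM in stiff gels and 326 and 125 FPKM in soft gels. Col1a1 and Col1a2 went the other way at very low levels, with 0.117 and 0.127 FPKM in stiff gels and 0.184 and 0.515 FPKM in soft gels. Endothelial markers summed to 9.47 to 14.0 FPKM in stiff libraries and 19.7 to 29.7 FPKM in soft libraries. Kdr, which was called lower, held most of it, with means of 10.7 FPKM in stiff gels and 24.7 FPKM in soft gels. These sums thus follow a few genes and do not measure cell types. Of the hair cell markers, only Myo7a passed the filter on low values, and Atoh1 and Pou4f3 were not analysed here. The part of these shifts in the results on chaperone genes was not tested.

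Most chaperone genes kept nearly the same level in both gels. Of the 93 genes, 87 had a mean of at least 1 FPKM in either group and were tested with all other genes by limma on log2(FPKM + 1), and 3 of the 87 passed a Benjamini-Hochberg adjusted p of 0.05, against a background of 5.81% of 11780 tested genes. Hspa2 and Dnajc6 were higher in stiff gels, where 3.13% of all genes were called higher, and Hspb8 was lower in stiff gels, where 2.68% were called lower. In bulk RNA, fewer cells of a type and less RNA per cell cannot be told apart. At an unadjusted p of 0.05, 9 chaperone genes were higher and 3 were lower, 12 of 87 in all, against 12.7% of all tested genes higher, 9.04% lower and 21.7% in all. The stiff and soft libraries did not overlap for 18 of the 87, with 12 higher and 6 lower in stiff gels, against 15.5% of all tested genes higher, 10.4% lower and 25.9% in all. limma-voom on rebuilt reads called the same 3 chaperone genes and 7.83% of all genes. When 1 library was left out, Hspb8 and Hspa2 stayed called each time. The share of all genes called was then 0.958%, 3.71% and 1.22% without stiff replicates 1, 2 and 3, and 13.8%, 0.552% and 1.78% without soft replicates 1, 2 and 3.

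The changes were also small. All fold changes here are differences of the mean log2(FPKM + 1), stiff minus soft. Their median was 0.00 over the 87 tested genes and 0.03 over all tested genes, and the median size without sign was 0.06 over the 87 and 0.09 over all. The 95% interval of the change lay within 1.5-fold in either direction for 82 of the 87 chaperone genes and for 90.1% of all tested genes. The other 5 were Hspb8, Hspa2, Dnajc6, Hspb2 and Hspb6, all cytosolic.

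**Figure D1:**
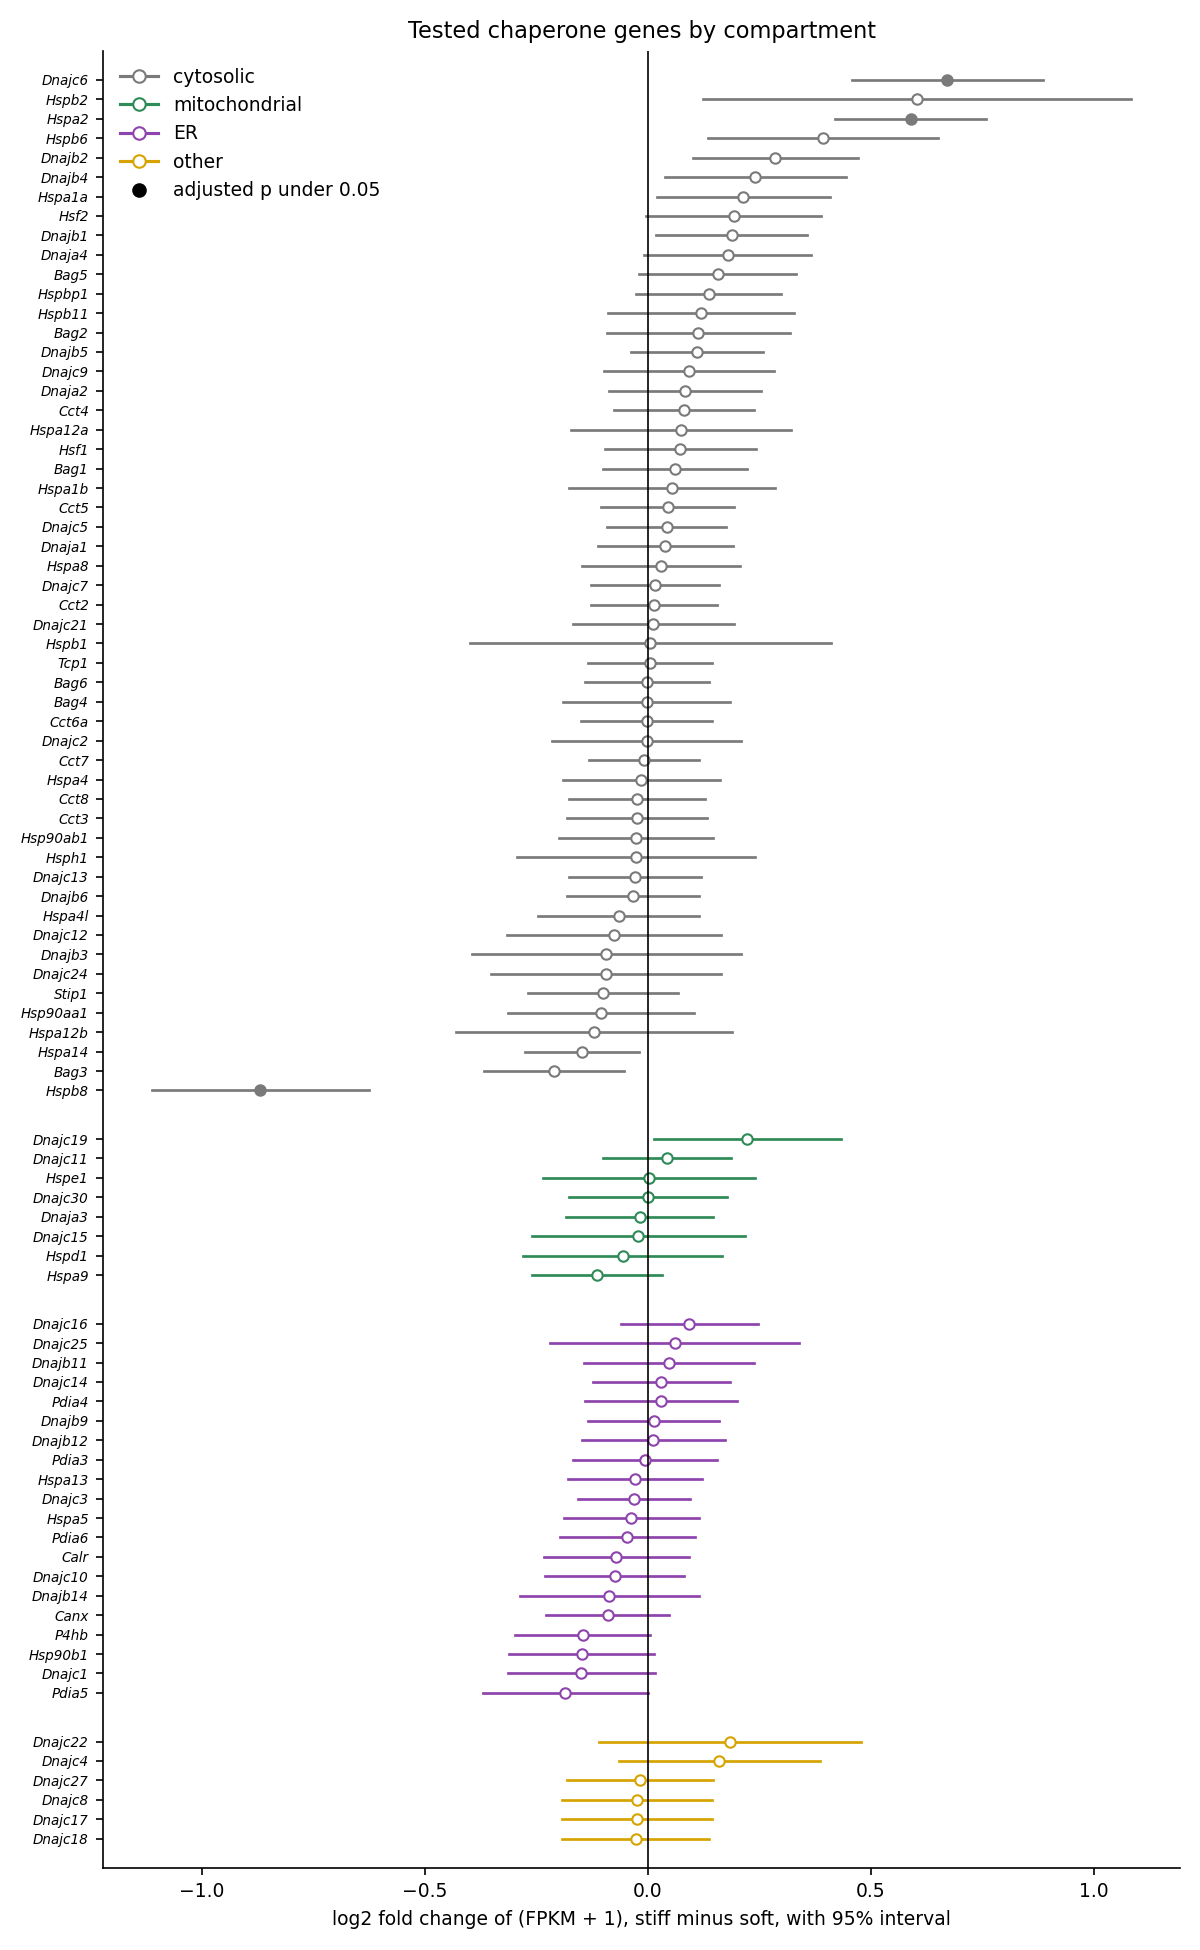
Log2 fold change of (FPKM + 1), stiff minus soft, for the 87 tested chaperone genes, with one row per gene, grouped by compartment, and a 95% interval from limma as the line. Filled points passed an adjusted p of 0.05; they are Dnajc6 and Hspa2 above 0 and Hspb8 below 0, while the intervals of all ER and mitochondrial genes stay within 0.58 of 0.

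The 6 genes that were not tested stayed under the filter on low values. They were Cct6b, Dnajb7, Dnajc28, Hspa1l, Hspb7 and Pdia2. Hspb7, a small heat shock protein known from heart muscle, had 0, 1 and 0 reads in stiff libraries and 5, 0 and 4 reads in soft libraries. Dnajc6 passed the filter only through its level in the stiff libraries, so its call rests in part on that filter, though it was also called with no filter, where 3.39% of all genes were called.

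Chaperone genes together took 2.16%, 2.05% and 2.11% of the summed FPKM in stiff replicates 1 to 3 and 2.26%, 2.104% and 2.13% in soft replicates 1 to 3. The cytosolic genes held 1.20% to 1.25% in stiff libraries and 1.18% to 1.29% in soft libraries. The ER genes held 0.720% to 0.772% in stiff libraries and 0.754% to 0.830% in soft libraries. In each compartment the stiff and soft ranges overlapped.

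**Figure D2:**
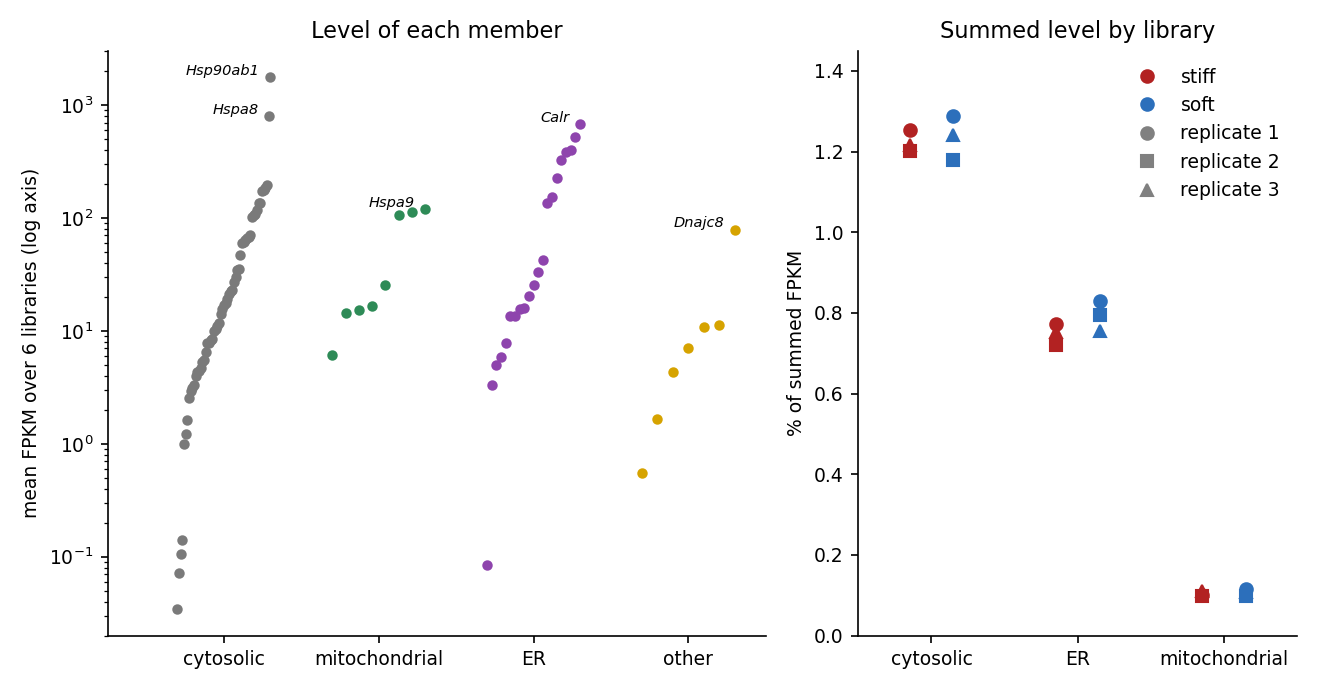
Left, mean FPKM over the 6 libraries on a log axis for each of the 93 chaperone genes, by compartment, with the most abundant named. Right, the percent of summed FPKM taken by each compartment in each library, with stiff libraries left of soft ones; the ranges overlap in all 3 compartments, and soft replicate 1 is the highest point in each.

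The small heat shock proteins held the gene with the lowest p of all chaperones. Hspb8 (mm10 chr5:116408491-116422864), which works with Bag3 to send misfolded proteins to autophagy, had 24.8, 26.6 and 22.4 FPKM in stiff libraries and 39.0, 46.7 and 52.2 FPKM in soft libraries. Every stiff library lay below every soft library. Hspb8 averaged 24.6 ± 2.13 FPKM in stiff gels and 46.0 ± 6.66 FPKM in soft gels (SD, n = 3 each), a log2 fold change of -0.87 with an SE of 0.11 (95% interval -1.11 to -0.63, limma adjusted p = 0.00732). The authors' deposited table gave a log2 fold change of -0.93 with a q of 8.16e-12.

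Other small heat shock protein genes had values on the opposite side. Hspb2, whose product is known from muscle, had 13.2, 12.6 and 12.045 FPKM in stiff libraries and 11.4, 8.58 and 5.05 FPKM in soft libraries. Hspb6, which is known to help relax smooth muscle, had 8.995, 10.4 and 9.60 FPKM in stiff libraries and 8.35, 7.36 and 5.80 FPKM in soft libraries. For both genes every stiff library lay above every soft one, with soft replicate 1 nearest to the stiff group. The log2 fold changes were 0.60 with an SE of 0.21 for Hspb2 (limma adjusted p = 0.136) and 0.39 for Hspb6 (limma adjusted p = 0.0816), so neither was called. Without soft replicate 1 both passed, at 0.84 for Hspb2 (limma adjusted p = 0.00906) and 0.50 for Hspb6 (limma adjusted p = 0.0131), in a fit that called 13.8% of all genes. Without soft replicate 3 the log2 fold change was 0.32 for Hspb2 (limma adjusted p = 0.215) and 0.27 for Hspb6 (limma adjusted p = 0.206).

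Hspb2 shares exons with the crystallin gene Cryab, another small heat shock protein gene that lies beside it on the opposite strand of chromosome 9. In GENCODE, 252 of 834 exon bases of Hspb2, or 30.2%, overlap Cryab, and the library kit does not mark strand, so their reads cannot be fully told apart. The overlap was larger for Dnaja4 (44.6% of its exon bases, with Wdr61) and for the untested Hspa1l (71.9%). Smaller overlaps with other annotated genes touch, among others, Hspa1a (19.0% of its exon bases), Hspa14 (17.9%), Hsp90b1 (14.7%) and Dnaja1 (10.5%). Cryab, which the symbol rule does not cover, had 316, 277 and 271 FPKM in stiff libraries and 266, 164 and 164 FPKM in soft libraries (log2 fold change 0.57, limma adjusted p = 0.0881). Every stiff library was above every soft one, soft replicate 1 nearly reaching stiff replicate 3, and Cryab was far more abundant than Hspb2. Without soft replicate 1, Cryab passed at 0.81 (limma adjusted p = 0.000531), in a fit that called 13.8% of all genes. It did not pass when any other library was left out.

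Hspb1, the classical inducible small heat shock protein HSP27 of human cells and HSP25 of mouse, did not follow either pattern. It had 8.76, 8.12 and 6.26 FPKM in stiff libraries and 5.43, 9.53 and 8.41 FPKM in soft libraries. The groups overlapped, with soft replicate 1 the lowest and soft replicate 2 the highest library, and the log2 fold change was 0.01 (95% interval -0.40 to 0.41).

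Among HSP70 genes, Hspa2 alone was called. Hspa2 (mm10 chr12:76403812-76406938), the HSP70 form that is most abundant in testis and needed for sperm formation, had 23.8, 20.7 and 20.3 FPKM in stiff libraries and 14.5, 13.8 and 13.7 FPKM in soft libraries. Each stiff library lay above each soft library. It averaged 21.6 ± 1.94 FPKM in stiff gels and 14.0 ± 0.457 FPKM in soft gels (SD, n = 3 each), a log2 fold change of 0.59 with an SE of 0.07 (95% interval 0.42 to 0.76, limma adjusted p = 0.00825). The authors' deposited table gave 0.60 with a q of 8.54e-07.

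The main constitutive HSP70 did not differ beyond the spread of the libraries. Hspa8, which folds new proteins and strips clathrin from vesicles, had 836, 780 and 823 FPKM in stiff libraries and 845, 736 and 811 FPKM in soft libraries (log2 fold change 0.03). The stress-inducible pair stayed low. Hspa1a had 1.90, 1.69 and 1.91 FPKM in stiff libraries and 1.53, 1.36 and 1.44 FPKM in soft libraries (log2 fold change 0.21, limma adjusted p = 0.185), without overlap. Hspa1b had 5.75, 4.49 and 4.29 FPKM in stiff libraries and 4.37, 4.51 and 4.91 FPKM in soft libraries, with overlap. Both genes are near-identical copies, so how their reads were divided is uncertain.

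Hspa14, a ribosome-linked HSP70, was on the lower side with 25.4, 26.5 and 25.6 FPKM in stiff libraries and 28.7, 28.1 and 29.4 FPKM in soft libraries. Its groups did not overlap, but the log2 fold change of -0.15 was not called (limma adjusted p = 0.169). Hsph1, the HSP110 exchange factor and a known target of HSF1, had 10.4, 9.98 and 12.2 FPKM in stiff libraries and 13.1, 9.33 and 10.9 FPKM in soft libraries, a log2 fold change of -0.03. The soft libraries alone spanned the whole range of the stiff ones.

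**Figure D3:**
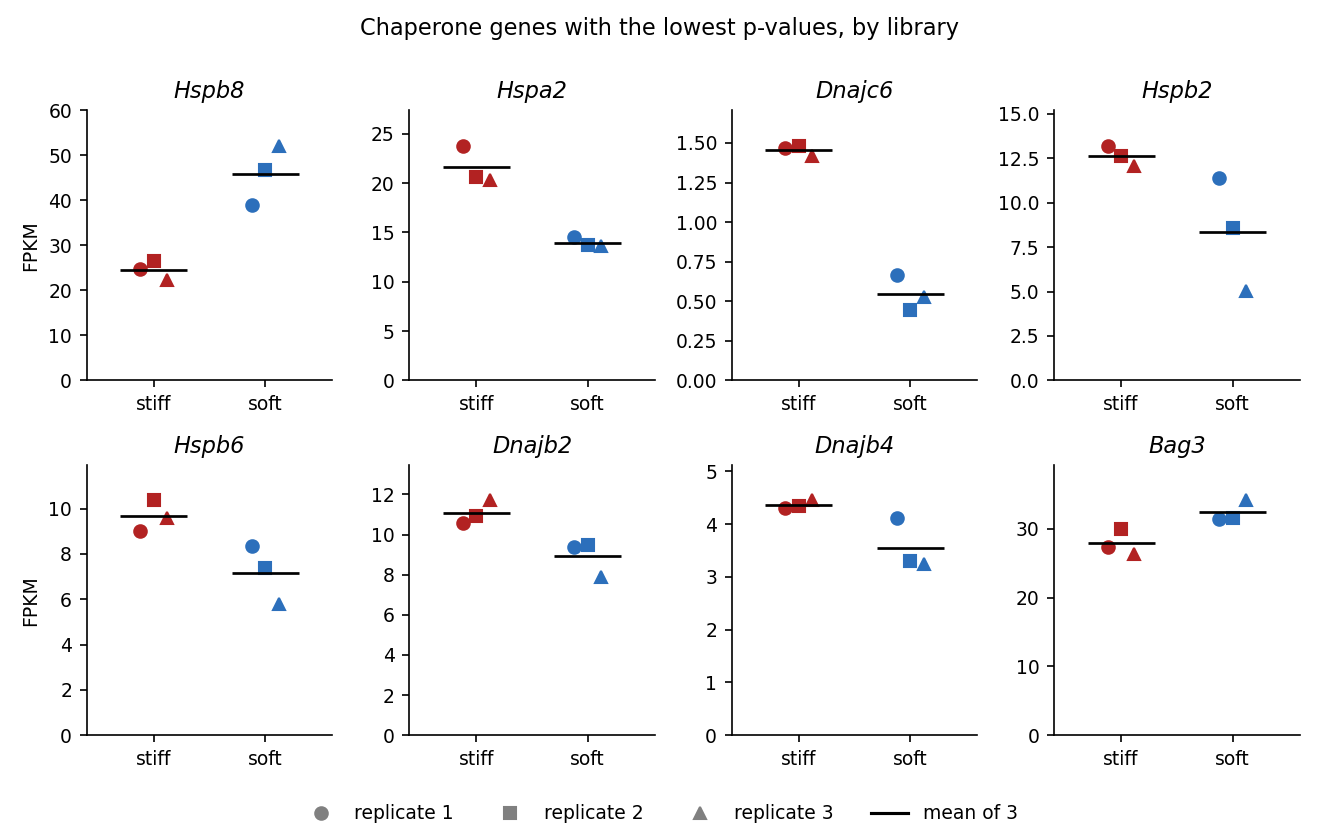
FPKM in each library for the 8 chaperone genes with the lowest p-values, with stiff libraries in red on the left, soft libraries in blue on the right, marker shapes for the replicate number and a line at the mean of 3 libraries. Each axis starts at 0 and has its own range; no panel shows overlap between the groups, and in 7 of the 8 panels, all but that of Dnajb2, soft replicate 1 is the soft library nearest to the stiff ones.

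The cytosolic J-domain genes, the family with the most tested genes, had 1 called gene. Of 18 tested, 6 had groups without overlap, all higher in stiff gels, against 15.5% of all genes that were higher without overlap, and 4 had an unadjusted p under 0.05, all higher, against 12.7%. The 6 without overlap included Dnaja4, of whose exon bases 44.6% overlap Wdr61 on the other strand. The called gene was Dnajc6. Dnajc6 (mm10 chr4:101496648-101642799) encodes auxilin, the co-chaperone that directs Hspa8 to clathrin coats, best known from neurons. It had 1.47, 1.48 and 1.42 FPKM in stiff libraries and 0.664, 0.445 and 0.524 FPKM in soft libraries. The stiff libraries lay close together and well above every soft library.

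Dnajc6 averaged 1.46 ± 0.0349 FPKM in stiff gels and 0.544 ± 0.111 FPKM in soft gels (SD, n = 3 each), a ratio of means of 2.68. As a difference of log2(FPKM + 1), which is smaller than the true change for a low gene, this was 0.67 with an SE of 0.09 (95% interval 0.46 to 0.89, limma adjusted p = 0.00965). The values rest on 148, 144 and 129 reads in stiff libraries and 65, 45 and 53 reads in soft libraries. The authors' deposited table gave a log2 fold change of 1.39 with a q of 1.24e-07. The call was lost without stiff replicate 1 (limma adjusted p = 0.0531) and without soft replicate 2 (limma adjusted p = 0.0518). Neuronal markers, for a cell type in which auxilin is abundant, summed to 1.48 to 1.92 FPKM in stiff libraries and 1.71 to 1.80 FPKM in soft libraries. Tubb3, the only 1 of the 4 markers that passed the filter, held most of it, with a mean of 1.31 FPKM in each gel. This sum thus does not measure a cell type, and the part of neurons in the Dnajc6 result was not tested.

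Dnajb2, a J-domain protein rich in neurons that passes HSP70 clients to the proteasome, had 10.6, 10.9 and 11.7 FPKM in stiff libraries and 9.39, 9.49 and 7.90 FPKM in soft libraries. Its log2 fold change was 0.29 (limma adjusted p = 0.0783). Dnajb4 had 4.31, 4.34 and 4.45 FPKM in stiff libraries and 4.12, 3.31 and 3.24 FPKM in soft libraries, a log2 fold change of 0.24 (limma adjusted p = 0.156). The groups did not overlap for either gene, and neither was called with all libraries. Without soft replicate 1, where 13.8% of all genes were called, both passed, at 0.32 for Dnajb2 (limma adjusted p = 0.0444) and 0.33 for Dnajb4 (limma adjusted p = 0.0272). Neither was called when any other library was left out.

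Dnajb1, the HSP40 that heat shock raises together with the inducible HSP70s, had 18.7, 18.8 and 17.3 FPKM in stiff libraries and 16.9, 14.4 and 16.4 FPKM in soft libraries. The groups did not overlap, and the log2 fold change of 0.19 was not called (limma adjusted p = 0.186). The most abundant cytosolic J-domain gene, Dnaja1, had a log2 fold change of 0.04 with overlap.

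Hsp90ab1, the constitutive cytosolic HSP90, was the most abundant chaperone gene by mean FPKM and ranked 16 among all genes. It had 1766, 1779 and 1693 FPKM in stiff libraries and 1811, 1709 and 1812 FPKM in soft libraries. Its log2 fold change was -0.03, with overlap. Hsp90aa1, the inducible form, had 174, 166 and 188 FPKM in stiff libraries and 215, 172 and 183 FPKM in soft libraries, a log2 fold change of -0.10 (limma adjusted p = 0.582). Only soft replicate 1 lay outside the range of the stiff libraries, and without it the log2 fold change was -0.011. Stip1, which links HSP70 to HSP90, had 99.8, 96.1 and 97.4 FPKM in stiff libraries and 116, 97.0 and 103 FPKM in soft libraries (log2 fold change -0.10, and -0.028 without soft replicate 1), and again soft replicate 1 was the highest.

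Bag3, the exchange factor that pairs with Hspb8, was on the same side as Hspb8. It had 27.3, 30.0 and 26.3 FPKM in stiff libraries and 31.4, 31.6 and 34.1 FPKM in soft libraries. The groups did not overlap, but the log2 fold change of -0.21 was not called (limma adjusted p = 0.115). The other Bag genes had overlapping groups.

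The heat shock factors themselves were not called. Hsf1 had 22.4, 24.2 and 23.6 FPKM in stiff libraries and 24.5, 21.2 and 21.0 FPKM in soft libraries, a log2 fold change of 0.07 (limma adjusted p = 0.643). Hsf2, which acts in development, had 3.23, 3.26 and 3.73 FPKM in stiff libraries and 3.11, 2.84 and 2.61 FPKM in soft libraries, a log2 fold change of 0.19 (limma adjusted p = 0.238). Hsf1 overlapped between the groups and Hsf2 did not. RNA levels of these factors say nothing on their activity, which is set mostly on the protein.

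The cytosolic chaperonin, a ring that folds actin and tubulin, had a median change without sign of 0.02, against 0.09 for all tested genes. The 8 tested subunit genes ranged in log2 fold change from -0.02 to 0.08. Of these, 0 were called by limma, 0 were under an unadjusted p of 0.05, 0 were called by limma-voom and 0 had groups that did not overlap. All tested genes gave 5.81%, 21.7%, 7.83% and 25.9% by these rules. With so few genes, these counts are no result about the family. Its most abundant subunit gene, Cct2, had 191, 201 and 205 FPKM in stiff libraries and 197, 190 and 204 FPKM in soft libraries. Tcp1 had 170, 177 and 182 FPKM in stiff libraries and 181, 169 and 176 FPKM in soft libraries, though 20.0% of its exon bases overlap Acat3 on the other strand.

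In mitochondria, HSP60 and HSP10 form the folding chamber and Hspa9 pulls proteins in through the membrane. None of the 8 tested mitochondrial genes was called by limma or limma-voom, and 1 had an unadjusted p under 0.05, where all tested genes gave 5.81%, 7.83% and 21.7%. With so few genes, these counts are near the background and are no result about the class. Hspd1, which encodes HSP60, had 99.4, 97.9 and 114 FPKM in stiff libraries and 119, 93.8 and 112 FPKM in soft libraries, a log2 fold change of -0.06. Hspe1, which encodes HSP10, had 100, 111 and 130 FPKM in stiff libraries and 121, 100 and 118 FPKM in soft libraries, a log2 fold change of 0.00 (95% interval -0.23 to 0.24). In both groups the spread between libraries was larger than the difference between the gels.

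Hspa9 had 111, 113 and 119 FPKM in stiff libraries and 124, 118 and 131 FPKM in soft libraries, a log2 fold change of -0.11 (limma adjusted p = 0.36) with overlap at soft replicate 2. The gene under an unadjusted p of 0.05 was Dnajc19, a J-domain protein of the inner membrane. It had 5.91, 6.89 and 7.15 FPKM in stiff libraries and 6.18, 5.12 and 5.34 FPKM in soft libraries (log2 fold change 0.22, limma adjusted p = 0.201). Stiff replicate 1 lay below soft replicate 1. The mitochondrial J-domain gene Dnaja3 had 16.2, 16.8 and 16.6 FPKM in stiff libraries and 18.4, 15.5 and 16.4 FPKM in soft libraries. Dnajc15, the most abundant mitochondrial J-domain gene, had 23.5, 25.9 and 25.9 FPKM in stiff libraries and 29.9, 25.3 and 21.7 FPKM in soft libraries. The groups overlapped for both.

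The promoters of HSP60 and HSP10 are one shared stretch, since both genes start next to each other on opposite strands, and it carries heat shock elements, the letters HSF1 is known to bind. The element was searched as GAA, TTC and GAA, or as TTC, GAA and TTC, with 2 free bases between the letters, on both strands of RefSeq promoter windows, from 250 bases before to 50 bases after the gene start, in the build GRCm38.p6. A window was listed for 77 of the 93 genes. The element stood in 67 of 11844 promoters of listed genes, or 0.566%, and in 4 of 77 chaperone promoters, or 5.19%. The 4 are shown because they carry the heat shock letters. None of the 4 genes was called, where 5.81% of all tested genes were, so with 4 genes this is no result. The match of Hsph1 starts after the gene start. The sequences run 5′ to 3′ on each gene's own strand, with the matches in capitals; those of Hspd1 and Hspe1 hold 2 overlapping matches.
Hspd1 (chr1:55088053-55088082, minus strand): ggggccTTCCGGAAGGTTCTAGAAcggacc
Hspe1 (chr1:55088053-55088082, plus strand): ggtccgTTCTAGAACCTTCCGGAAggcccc
Dnajb6 (chr5:29735844-29735872, plus strand): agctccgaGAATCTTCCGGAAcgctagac
Hsph1 (chr5:149636280-149636308, minus strand): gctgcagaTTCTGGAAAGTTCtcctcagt

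These 4 genes had log2 fold changes of -0.06 for Hspd1, 0.00 for Hspe1, -0.03 for Dnajb6 and -0.03 for Hsph1. The windows of Hspb8, Hspa2 and Dnajc6, the called genes, held no match to these letters, which says only that the letters are not in those windows.

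The ER chaperones fold secreted and membrane proteins. The ER class had 0 of 20 tested genes called by limma, 0 under an unadjusted limma p of 0.05, 0 called by limma-voom and 0 with a q under 0.05 in the authors' deposited table, where all genes gave 5.81%, 21.7%, 7.83% and 8.12% by these rules. The authors' unadjusted p was under 0.05 for Hsp90b1 (0.0119), P4hb (0.0207) and Dnajc1 (0.0389), all lower in stiff gels. The share of all genes under that p was not counted here, so these genes are no result about the class. The stiff and soft libraries did not overlap for 4 of the 20, with 1 higher and 3 lower in stiff gels, against 25.9% of all genes. The log2 fold changes ran from -0.18 to 0.09 with a median of -0.03, and 13 of the 20 lay below 0, while 58.8% of all tested genes lay above 0. The class was not tested as a set. All 20 intervals lay within 1.5-fold in either direction.

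Hspa5, the ER HSP70 known as BiP and the usual marker of the unfolded protein response, had 396, 381 and 420 FPKM in stiff libraries and 420, 410 and 396 FPKM in soft libraries. The groups overlapped, with a log2 fold change of -0.04 (95% interval -0.19 to 0.12). Hsp90b1, the ER HSP90 known as GRP94, had 493, 482 and 512 FPKM in stiff libraries and 583, 551 and 515 FPKM in soft libraries. All soft libraries were above all stiff ones, soft replicate 3 by little, and the log2 fold change of -0.15 was not called (limma adjusted p = 0.277).

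The most abundant ER J-domain gene, Dnajc10, which reduces disulfide bonds in misfolded proteins, had 38.9, 40.8 and 43.7 FPKM in stiff libraries and 40.7, 43.7 and 45.6 FPKM in soft libraries (log2 fold change -0.07), with overlap. Of the other J-domain partners of BiP, Dnajc3, which also inhibits the stress kinase PERK, had 24.8, 25.5 and 25.0 FPKM in stiff libraries and 25.9, 25.9 and 25.2 FPKM in soft libraries. Dnajb9, a sensitive target of the unfolded protein response, had 13.1, 14.6 and 13.5 FPKM in stiff libraries and 13.7, 13.5 and 13.5 FPKM in soft libraries. Dnajb11 had 34.9, 30.5 and 36.7 FPKM in stiff libraries and 35.7, 31.6 and 31.4 FPKM in soft libraries. The groups overlapped for all of these. Dnajc1 had 4.98, 4.53 and 4.44 FPKM in stiff libraries and 5.13, 5.48 and 5.16 FPKM in soft libraries, without overlap and with a log2 fold change of -0.15 that was not called.

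The lectin chaperones, which hold sugar-bearing proteins until they fold, were abundant in both gels, and neither was called. Calr, which encodes calreticulin and ranked 83 among all genes, had 680, 647 and 656 FPKM in stiff libraries and 737, 691 and 656 FPKM in soft libraries (log2 fold change -0.07). Canx, which encodes calnexin, had 142, 149 and 156 FPKM in stiff libraries and 163, 157 and 156 FPKM in soft libraries (log2 fold change -0.09). For both, soft replicate 1 was the highest library.

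Of the disulfide isomerases, P4hb, which is also a subunit of the enzyme that hydroxylates collagen, had 365, 383 and 347 FPKM in stiff libraries and 391, 414 and 406 FPKM in soft libraries. Its groups did not overlap, and the log2 fold change of -0.15 was not called (limma adjusted p = 0.249). Pdia5 had 14.5, 15.5 and 14.7 FPKM in stiff libraries and 17.4, 18.8 and 15.2 FPKM in soft libraries (log2 fold change -0.18, limma adjusted p = 0.231), with overlap. Pdia4 had 142, 128 and 138 FPKM in stiff libraries and 145, 130 and 124 FPKM in soft libraries. Pdia6 had 227, 212 and 234 FPKM in stiff libraries and 241, 232 and 221 FPKM in soft libraries. Both overlapped.

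**Figure D4:**
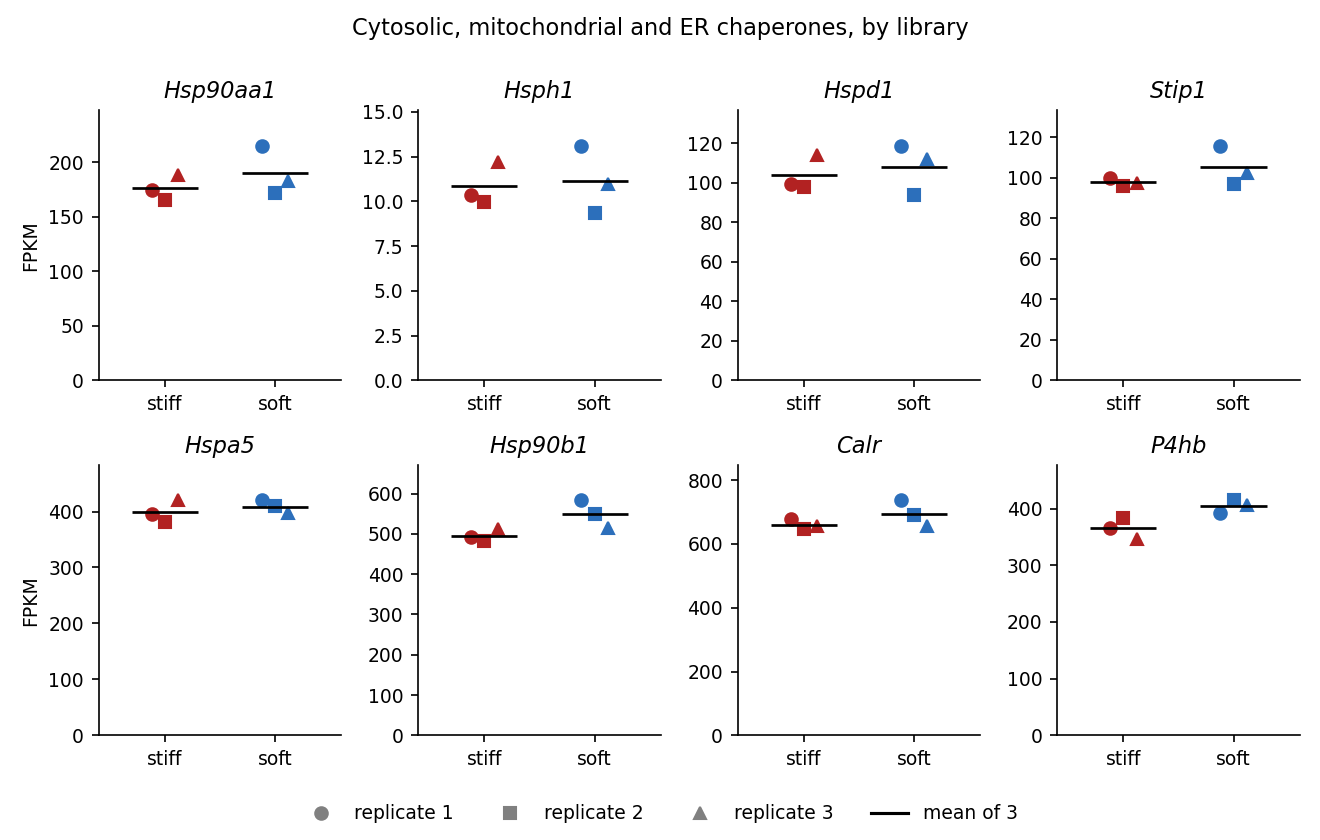
FPKM in each library for 4 cytosolic or mitochondrial chaperone genes (top) and 4 ER chaperone genes (bottom), with stiff libraries in red on the left, soft libraries in blue on the right, marker shapes for the replicate number and a line at the mean of 3 libraries. Each axis starts at 0, and Hsp90b1 and P4hb are the panels without overlap. The genes shown were chosen by hand. Soft replicate 1 is the highest library in all 4 top panels, but for 31.0% of all tested chaperone genes.

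What several ER chaperone genes share, and the cytosolic ones lack, is the ER stress element in the promoter, the letters through which the unfolded protein response is known to act. Searched as CCAAT and CCACG with 9 free bases between them, on both strands of the same windows, it stood in 23 of 11844 promoters, or 0.194%. It stood in 6 of 20 ER chaperone promoters, or 30.0%, and in 0 of 47 cytosolic ones. The 6 are shown with the matches in capitals, on each gene's own strand; the match of Calr and the second match of Hsp90b1 read on the opposite strand.
Hspa5 (chr2:34772020-34772048, plus strand): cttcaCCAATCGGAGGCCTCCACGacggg
Hsp90b1 (chr10:86705518-86705671, minus strand): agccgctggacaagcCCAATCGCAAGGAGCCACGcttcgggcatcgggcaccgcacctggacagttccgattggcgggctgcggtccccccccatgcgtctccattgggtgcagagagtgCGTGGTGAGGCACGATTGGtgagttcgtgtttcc
Calr (chr8:84847060-84847108, minus strand): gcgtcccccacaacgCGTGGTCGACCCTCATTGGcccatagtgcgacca
Canx (chr11:50325785-50325833, minus strand): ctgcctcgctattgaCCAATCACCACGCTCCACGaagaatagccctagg
Dnajc3 (chr14:118937812-118937860, plus strand): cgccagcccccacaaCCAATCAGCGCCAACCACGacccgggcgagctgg
Pdia6 (chr12:17266476-17266524, plus strand): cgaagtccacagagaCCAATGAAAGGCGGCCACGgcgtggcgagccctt

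The 6 genes with the element all had log2 fold changes below 0, from -0.15 for Hsp90b1 to -0.03 for Dnajc3. Of the 20 tested ER genes, 13 lay below 0, while 58.8% of all tested genes lay above 0. None of the 6 was called, where 5.81% of all tested genes were, so with 6 genes neither the direction nor the calls are a result. A match is a description of the letters and does not show that a factor was bound in these cells.

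The genes classed as other, J-domain genes of the nucleus, the spliceosome and places less well known, held 6 tested genes. Of these, 0 were called by limma, 0 by limma-voom, 0 were under an unadjusted p of 0.05 and 0 were without overlap. All tested genes gave 5.81%, 7.83%, 21.7% and 25.9% by these rules, so with 6 genes these counts are no result about the class. Their median log2 fold change was -0.02. The most abundant, Dnajc8, which is known from the spliceosome, had 74.2, 77.3 and 83.3 FPKM in stiff libraries and 86.6, 76.7 and 75.6 FPKM in soft libraries, with overlap.

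Soft replicate 1 held the highest value for many chaperone genes. It was the highest of the 6 libraries for 27 of the 87 tested genes, or 31.0%, against 15.0% of all tested genes. Soft replicate 2 was the lowest for 30 of the 87, or 34.5%, against 20.1% of all tested genes.

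Around the chaperones, 5 lists of related genes gave few calls. Their median log2 fold changes were 0.03 for targets of HSF1 and cofactors, -0.01 for the unfolded protein response, 0.02 for other ER folding factors, 0.00 for mitochondrial proteostasis and 0.05 for prefoldin and chaperonin cofactors, beside 0.03 for all tested genes. Over all tested genes, 5.81% were called, and at an unadjusted p under 0.05 12.7% were higher and 9.04% lower; with 11 to 27 tested genes a list, these counts are descriptions. Of 23 tested targets of HSF1 and cofactors of HSP90 or HSP70, 1 was called, and it was lower, while 4 were higher and 2 lower at an unadjusted p under 0.05. Hmox1, the haem oxygenase raised by oxidative stress, had 10.9, 14.5 and 10.9 FPKM in stiff libraries and 15.2, 20.6 and 21.0 FPKM in soft libraries. All stiff libraries lay below all soft ones, and the log2 fold change was -0.60 with an SE of 0.14 (limma adjusted p = 0.0411). The call was lost without stiff replicate 1 (limma adjusted p = 0.141), stiff replicate 3 (0.144), soft replicate 2 (0.151) or soft replicate 3 (0.138), and with no filter (0.072).

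Of 23 tested regulators and targets of the unfolded protein response, 0 were called by limma, and 2 were higher and 5 lower at an unadjusted p under 0.05. Xbp1, the transcription factor that drives much of that response, had 109, 116 and 106 FPKM in stiff libraries and 124, 147 and 144 FPKM in soft libraries. The groups did not overlap, and the log2 fold change of -0.32 just missed the threshold (limma adjusted p = 0.0517). Xbp1 was called by limma-voom on rebuilt reads (adjusted p = 0.0361), where 7.83% of all genes were called. It was also called by limma without soft replicate 1 (adjusted p = 0.00522), where 13.8% of all genes were called. It was not called when any other library was left out. Atf6b, a membrane-bound factor of the same response, had 38.8, 31.9 and 37.0 FPKM in stiff libraries and 32.8, 29.4 and 28.7 FPKM in soft libraries (log2 fold change 0.24, limma adjusted p = 0.149). The spliced form of Xbp1, which is the active one, was not analysed here.

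Of 27 other tested ER folding factors, 0 were called by limma, and 3 were higher and 3 lower at an unadjusted p under 0.05. Sec63, the J-domain protein of the translocation channel, had 27.3, 28.0 and 28.9 FPKM in stiff libraries and 31.0, 33.6 and 33.3 FPKM in soft libraries (log2 fold change -0.21, limma adjusted p = 0.0815). Every stiff library lay below every soft one. Sec63 passed without soft replicate 1 (limma adjusted p = 0.0337), where 13.8% of all genes were called. It did not pass when any other library was left out. Fkbp10, which helps fold collagen, had a log2 fold change of 0.18 (limma adjusted p = 0.154).

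Of 20 tested genes of mitochondrial proteostasis, 0 were called by limma and 1 had an unadjusted p under 0.05, on the lower side. It was Phb, a scaffold of the inner membrane, with 74.7, 77.7 and 80.6 FPKM in stiff libraries and 88.4, 90.3 and 102 FPKM in soft libraries (log2 fold change -0.26, limma adjusted p = 0.0647). The groups did not overlap, and limma-voom on rebuilt reads called it (adjusted p = 0.0477), where 7.83% of all genes were called. Limma without soft replicate 1 also called Phb (adjusted p = 0.027), with 13.8% of all genes. It was not called when any other library was left out. Of 11 tested genes of prefoldin and chaperonin cofactors, 0 were called by limma and 2 were higher at an unadjusted p under 0.05. Vbp1, a prefoldin subunit, had 31.1, 32.8 and 37.8 FPKM in stiff libraries and 29.3, 28.8 and 29.4 FPKM in soft libraries (log2 fold change 0.21, limma adjusted p = 0.159).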

How the data were processed

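The authors deposited a table with 1 FPKM column per library, taken as FPKM from how the values behave, as no unit stands in the header. The build mm10, TopHat2 2.1.1 and DESeq2 are named per the submitters' processing notes. No source used here names the counter or the annotation. The deposited base mean is a signal, the mean normalized count over the libraries, per the file headers. The authors' own comparison gives a fold (stiff over soft), its log2, a standard error and Wald statistic (taken as a score), and a p-value and q-value, per the file headers.

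Reads were rebuilt from FPKM and base mean, and 100.0% of values came out whole within 0.05 reads. Intervals are limma's 95% intervals, from the spread between libraries. Genes with a mean of at least 1 FPKM in either group were tested with limma 3.58.1 in R 4.3.3 (intensity trend, no block) on log2(FPKM + 1), with Benjamini-Hochberg adjustment over 11780 genes and a threshold of 0.05. The fit was tested on simulated data. Alternatives were median-ratio scaling, a pseudocount of 0.1, no filter, a minimum of 5 FPKM, limma-voom on rebuilt reads, a replicate block and leaving out each library.

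Members and lists were chosen with earlier results of these data known. Named genes were the called ones, the most abundant of each family, the 5 largest changes in each direction, a set of well-known chaperones, and in each outside list the called genes and the lowest p in each direction. Dnajb4, Hspa14, Dnajc19 and Dnajb6 were added after their values were seen. Promoter sequences are from RefSeq (GRCm38.p6), exon overlaps from GENCODE M21.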

Additional observations from a re-analysis of the deposited data

How the results depend on the processing

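The number of called genes was 685 with all libraries and ranged from 65 to 1627 when 1 library was left out, the lowest without soft replicate 2 and the highest without soft replicate 1. Chaperone genes called numbered 3 with all libraries and 2 to 7 with 1 left out. Hspb8 and Hspa2 were called under every alternative tried. Dnajc6 was not tested at a minimum of 5 FPKM and missed the threshold without stiff replicate 1 or soft replicate 2. A replicate block gave 710 called genes and the same 3 chaperone genes, and also called Cryab (limma adjusted p = 0.0201) and Xbp1 (0.0494). After the group mean of each gene was taken off, the deviations of same-numbered libraries correlated at 0.009, 0.219 and -0.211. Those of differently numbered libraries ran from -0.382 to 0.347. The numbers were not read as pairs. limma-voom called 922 genes. Over all alternatives the median change ran from -0.01 to 0.059 for cytosolic genes, -0.047 to 0.049 for mitochondrial ones, -0.062 to -0.018 for ER ones and -0.045 to 0.022 for the others. Only the ER median kept its sign throughout, but the alternatives share most or all of their libraries. Its main value of -0.034 was close to the SD of the class median between libraries, 0.032. Median-ratio scaling turned the sign of the cytosolic median. With median-ratio scaling, under which Xbp1 was called (limma adjusted p = 0.0492) and which shifts the median of all genes from 0.03 to 0.00, small changes turned sign: Dnajb9 -0.013, Cct2 -0.015, Hspb1 -0.019, Tcp1 -0.023 and Hspe1 -0.025. Leaving out 1 library moved the sign of genes near 0, over ranges of -0.009 to 0.122 (Dnajb11), -0.03 to 0.047 (Dnajb9), -0.017 to 0.093 (Pdia4), -0.013 to 0.044 (Cct2), -0.011 to 0.075 (Dnaja1), -0.054 to 0.122 (Hspa1b), -0.027 to 0.072 (Hspa8), -0.204 to 0.152 (Hspb1), -0.136 to 0.089 (Hsph1), -0.021 to 0.033 (Tcp1), -0.071 to 0.046 (Dnaja3), -0.131 to 0.091 (Dnajc15), -0.155 to 0.014 (Hspd1), -0.096 to 0.087 (Hspe1) and -0.068 to 0.038 (Dnajc8); the cause was not tested.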
